A study of Mus musculus with 7 samples.

Results

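The 7 genes described here encode proteins that carry lipid in lipoproteins or bind lipoproteins at the cell surface: Apoe, Clu, Apod, Apoc1, Vldlr, Scarb1 and Olr1. They were chosen by name, with earlier results of these data known, from a table of 32544 genes, and all 7 were listed in it. Apolipoproteins are the protein part of lipoproteins, the particles that move cholesterol and triglyceride between tissues. Receptors of the LDL receptor family and scavenger receptors take these particles, or the lipid in them, into cells. In the artery wall, macrophages and smooth muscle cells that take up lipoproteins fill with lipid and become the foam cells of atherosclerotic plaques, and apolipoprotein E is the ligand through which liver receptors clear remnant particles from blood.

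Whole abdominal aortas of 2 groups of mice were sequenced. The ITA-LNP group (3 libraries) was given 50 mg/kg of ITA-LNP into a vein 1 time a week, and the control-LNP group (4 libraries) the same dose of Ctrl-LNP. LNP commonly stands for lipid nanoparticle, and ITA was taken to be itaconate, which the series title names, a metabolite that macrophages make from a TCA cycle intermediate. Both groups were Apoe-/- males, mice made to lack apolipoprotein E that form plaques, on a high-fat diet for 12 weeks. The labels used here state neither age nor strain background, nor which part of Apoe was removed. Whether every library is a mouse of its own is not stated either, so p-values measure only the spread between these libraries, which may be technical. Whole vessels were used, so wall, plaque, surrounding fat and blood cells share a library, and fewer cells of a type and less RNA per cell cannot be told apart.

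Levels are in CPM, read counts scaled so that each library sums to 1000000. The libraries held 6375381 to 7281721 reads with ITA-LNP and 5077073 to 6688872 reads with control-LNP, and 0 reads allow a level of up to 0.412 to 0.591 CPM (3 reads) depending on the library. These limits, and the intervals from reads below, cover counting error only. The 3′ method counts 1 stretch at the end of each transcript, so gene length does not enter a level. The tissue label was checked against markers. The 8 smooth muscle markers summed to 16376 to 20085 CPM with ITA-LNP and to only 118 to 215 CPM in the libraries labelled control-LNP. The 9 platelet markers summed to 88.1 to 170.03 CPM with ITA-LNP and 5056 to 6449.6 CPM with control-LNP. None of the 8 smooth muscle markers was at 0 throughout either group, but at these levels the control-LNP libraries go against the label of an artery wall. This difference in content coincides with the groups, so an effect of ITA-LNP on a gene cannot be told apart from it. Below, rose and fell mean only higher and lower with ITA-LNP than with control-LNP. Control-LNP replicate 2 stood apart from the other control-LNP libraries. It correlated with them across genes at 0.607 to 0.625, against 0.933 to 0.949 among those 3. Its neutrophil markers summed to 27132 CPM, against 955, 10371 and 1107 CPM in control-LNP replicates 1, 3 and 4. The fold changes of the 7 genes are therefore given with and without it.

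Of the 7 genes, 6 passed the filter for low values (log2(CPM + 1) averaging at least 1 across the 7 libraries) and were tested with limma. Of these, 4 were higher with ITA-LNP (Vldlr, Apod, Apoe and Clu) and 0 lower at an adjusted p under 0.05. At an unadjusted p under 0.05 none was lower either, nor with limma-voom on the reads. Among all 12636 genes tested, 10.3% were called higher and 5.15% lower, 15.5% in all. The same 4 genes were those whose ITA-LNP values all lay above all control-LNP values, which held for 19.1% of the genes tested. No member had all ITA-LNP values below all control-LNP values, which held for 10.7% of the genes tested. Without control-LNP replicate 2 all 7 genes passed the filter, and again 4 were higher and 0 lower, where 15.4% of all genes were called higher and 16.0% lower, 31.4% in all. With each library centred on its median, 2 of the 4 passed, Vldlr and Apod. That centring moved the median log2 fold change of all genes by -1.13, to -0.98, and the share of called genes that were higher to 37.2%, against 66.7%. Relative to the median of all genes, Vldlr stood 5.53, Apod 4.43, Apoe 1.83 and Clu 1.81 higher under both scalings, since centring shifts all genes alike. Scarb1 and Olr1 did not pass, and Apoc1 was too low to test.

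**Figure D1:**
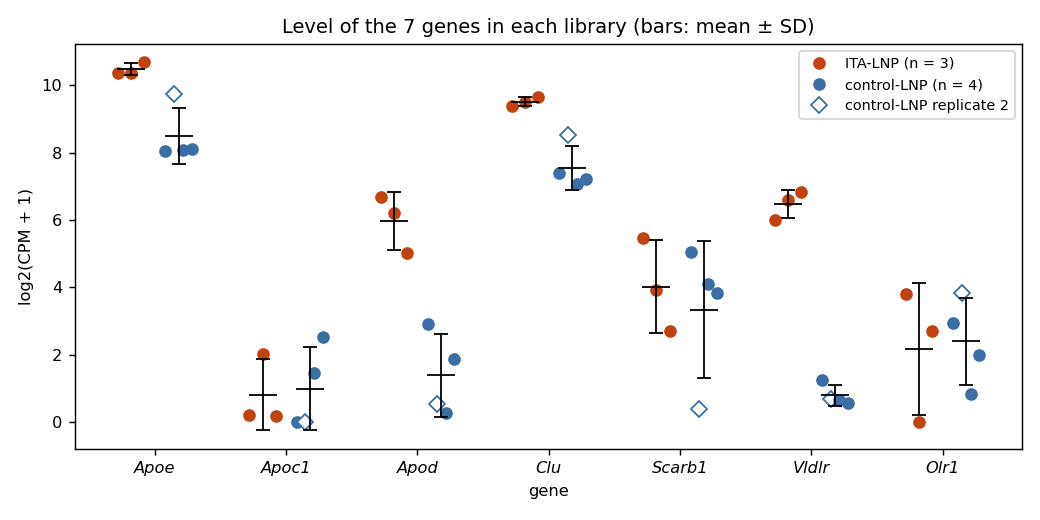
Level of each gene as log2(CPM + 1) in the 3 ITA-LNP libraries (left of each pair) and the 4 control-LNP libraries (right), 1 point per library, with mean ± SD on that scale. Apoe, Apod, Clu and Vldlr separate by group, control-LNP replicate 2 (open diamond) is the highest control-LNP library for Apoe and Clu and the lowest for Scarb1, and Apoc1, Scarb1 and Olr1 overlap.

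Apoe (ENSMUSG00000002985.16; mm10 chromosome 7, 19696109 to 19699188, minus strand) is the gene these mice lack by their label. Its reads were nevertheless found in every library, at 1330.4, 1326 and 1643 CPM in ITA-LNP replicates 1 to 3, against 263, 856, 268 and 274 CPM in control-LNP replicates 1 to 4. A read from a 3′ end that lies outside the removed part checks nothing about the genotype, and these reads say nothing of protein. With 8482 to 11962 reads per ITA-LNP library and 1336 to 5729 reads per control-LNP library, Apoe had the most reads of the 7 genes in all 7 libraries. It ranked 51 to 73 among all genes of the ITA-LNP libraries and 166 to 639 in the control-LNP libraries.

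All ITA-LNP values of Apoe lay above all control-LNP values. The ITA-LNP mean was 1433 ± 182 CPM and the control-LNP mean 416 ± 294 CPM (SD, n = 3 and 4), a ratio of 3.45. Apoe rose by a log2 fold change of 1.99 ± 0.42 (SE; limma, adjusted p = 0.00969). The 3 control-LNP libraries other than replicate 2 agreed within 1.04-fold, at 269 ± 5.53 CPM, a coefficient of variation of 2.06% where the counting of reads alone gives 2.61%. Against those 3, the ratio was 5.34 and the log2 fold change 2.40 ± 0.18 (limma, adjusted p = 7.98e-05). The call was lost without ITA-LNP replicate 3 (1.88, limma adjusted p = 0.0526), with median centring (0.86, adjusted p = 0.674) and with a variance prior without a trend (adjusted p = 0.0860). Beside it, the 8 macrophage markers summed to 1469 to 2300.4 CPM with ITA-LNP and 1219.8 to 1764 CPM with control-LNP, and the 6 foamy macrophage markers to 5590.1 to 8162 CPM with ITA-LNP and 246 to 474 CPM with control-LNP. Of the 8 macrophage markers 4 rose (C1qa, C1qb, C1qc and Mrc1) and 1 fell (Csf1r), while Lyz2, which holds most of the sum, did not pass. No marker of either list was at 0 throughout a group, and their part in the result was not tested.

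Clu (ENSMUSG00000022037.15; chromosome 14, 65968483 to 65981547, plus strand) encodes clusterin, also called apolipoprotein J, a secreted chaperone that travels on high-density lipoproteins and is also stored in platelets. It was at 666, 733 and 799 CPM in the ITA-LNP libraries, against 167, 367, 133 and 148 CPM in control-LNP replicates 1 to 4. The groups did not overlap, and the highest control-LNP value was again that of replicate 2. Clu rose by a log2 fold change of 1.96 ± 0.39 (limma, adjusted p = 0.00699), with means of 733 ± 66.7 CPM in ITA-LNP and 204 ± 109.5 CPM in control-LNP libraries. Without control-LNP replicate 2 the log2 fold change was 2.29 ± 0.20 (limma, adjusted p = 0.000145). Leaving out any 1 library kept the call (limma, adjusted p up to 0.0368), while median centring (0.83, adjusted p = 0.659) and a prior without a trend (adjusted p = 0.0686) did not.

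The mean proportion of Apoe to Clu was alike in both groups, while single libraries differed. There were 2.00, 1.81 and 2.06 Apoe reads per Clu read in the ITA-LNP libraries and 1.57, 2.33, 2.01 and 1.85 in control-LNP replicates 1 to 4. The mean was 1.95 ± 0.129 with ITA-LNP and 1.94 ± 0.318 with control-LNP (SD, n = 3 and 4). Together both genes made up most of the summed CPM of the 7 genes, with Apoe at 59.1% to 63.3% with ITA-LNP and 55.2% to 69.2% with control-LNP, and Clu at 30.02% to 32.7% with ITA-LNP and 29.6% to 35.1% with control-LNP. That sum was 2218 to 2596 CPM with ITA-LNP and 421 to 1238 CPM in the control-LNP libraries. The lowest and the highest proportion were both in control-LNP libraries. This proportion was noticed after the values were seen and is a description.

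Apod (ENSMUSG00000022548.14; chromosome 16, 31296192 to 31314808, minus strand) encodes apolipoprotein D, a small carrier of the lipocalin family that fibroblasts and glial cells make. It was at 102, 72.6 and 31.3 CPM in ITA-LNP replicates 1 to 3, a 3.26-fold span, against 6.50, 0.449, 0.192 and 2.62 CPM in control-LNP replicates 1 to 4. The control-LNP values rested on 33, 3, 1 and 16 reads, so 2 of them were at or under the limit of 3 reads. All ITA-LNP values were above all control-LNP values, and Apod rose by a log2 fold change of 4.58 ± 0.98 (limma, adjusted p = 0.0109), or 4.29 ± 0.83 without control-LNP replicate 2 (adjusted p = 0.00592). The ratio of CPM from pooled reads was 29.2 (95% exact interval 22.2 to 39.2, which leaves out the spread between libraries). Without ITA-LNP replicate 1, the highest library, the call was lost (4.22, limma adjusted p = 0.0577). Beside it, the summed fibroblast markers were 13470 to 16020 CPM with ITA-LNP and 96.9 to 241 CPM with control-LNP, and the Schwann cell markers 83.1 to 122 CPM with ITA-LNP and 93.9 to 149 CPM with control-LNP. Of the 4 Schwann cell markers tested, 2 rose with ITA-LNP and 0 fell, against the direction of the sum. No marker of either list was at 0 throughout a group, and their part in the result was not tested.

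Apoc1 (ENSMUSG00000040564.14; chromosome 7, 19689481 to 19692660, minus strand) encodes apolipoprotein C-I, which holds back the uptake of triglyceride-rich particles. It had 1, 21 and 1 reads in the ITA-LNP libraries (0.157, 3.09 and 0.137 CPM), and 0, 0, 9 and 29 reads in control-LNP replicates 1 to 4, of which the last 2 equal 1.73 and 4.76 CPM. The 0 reads allow up to 0.591 and 0.449 CPM. Most reads of each group came from 1 library, and the groups overlapped. Its mean log2(CPM + 1) of 0.915 was below the filter, so it has no test over all libraries. Without control-LNP replicate 2 it passed the filter with a log2 fold change of -0.51 (limma, adjusted p = 0.679).

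The control-LNP library with the most Apoc1 reads also held reads of some genes of liver and lacked those of others. Alb, the plasma albumin gene of hepatocytes, had 0 reads in the ITA-LNP libraries, against 198 in control-LNP replicate 4 and 0 in the other control-LNP libraries. The 8 hepatocyte markers summed to 3.39 to 27.9 CPM with ITA-LNP, against 87.6 CPM in control-LNP replicate 4 and 2.36 to 22.7 CPM in the others. Of these markers 5 were at 0 in all ITA-LNP libraries (Alb, Serpina1a, Serpina1b, Fgb and Tat), and Tat was at 0 in all control-LNP libraries too. Apoc3 and Apoh, 2 further apolipoprotein genes of liver named after their values were seen, had 0 reads in the ITA-LNP libraries, against 26 and 34 in control-LNP replicate 4 and 0 in the other control-LNP libraries. Other apolipoprotein genes of liver were nearly without reads there: Apob had 0 reads in every library, Apoa1 had 0 in the ITA-LNP libraries and at most 1 in a control-LNP library, and Apoa2 had 0 in the ITA-LNP libraries, against 7 and 8 in control-LNP replicates 3 and 4. The library with 21 Apoc1 reads, ITA-LNP replicate 2, had the lowest hepatocyte sum of its group. The part of liver RNA in the Apoc1 values was not tested.

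Apoe and Apoc1 lie in a cluster of apolipoprotein genes on the minus strand of chromosome 7, in the order Apoc2, Apoc4, Apoc1 and Apoe by coordinate, between Clptm1 on one side and Tomm40 and Nectin2 on the other. Of the 5 neighbours tested, none passed in the direction of Apoe. Over all genes tested 10.3% were called higher and 5.15% lower, so the count of so few neighbours is no result about the cluster. Apoc2, which encodes the activator of lipoprotein lipase, was at 0.627, 0.147 and 0.275 CPM in the ITA-LNP libraries, from 4, 1 and 2 reads, against 9.85, 195, 16.5 and 23.1 CPM in control-LNP replicates 1 to 4. It fell by 4.53 ± 1.12 on the log2 scale (limma, adjusted p = 0.0218), or by 3.64 without control-LNP replicate 2 (adjusted p = 0.00421). The call did not hold with median centring (-5.66, limma adjusted p = 0.0579), nor when any one ITA-LNP library or control-LNP replicate 4 was left out (adjusted p = 0.0568 to 0.0776). Apoc4 was at 0.471, 0 and 12.8 CPM with ITA-LNP and 16.3, 0.299, 9.42 and 7.38 CPM with control-LNP, with a log2 fold change of -1.29 ± 1.25 (limma, adjusted p = 0.562). An annotated gene that spans Apoc2 and Apoc4, Gm44805, was listed at 0 in all libraries, and the counting could have treated reads shared with it as uncertain. Clptm1, Tomm40 and Nectin2 are named only for their position and did not pass (limma, adjusted p = 0.265, 0.833 and 0.121). Nectin2 was at 10.8, 0 and 15.7 CPM in the ITA-LNP libraries, against 0 reads in every control-LNP library, and Clptm1 and Tomm40 had log2 fold changes of 1.43 and 0.52.

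**Figure D2:**
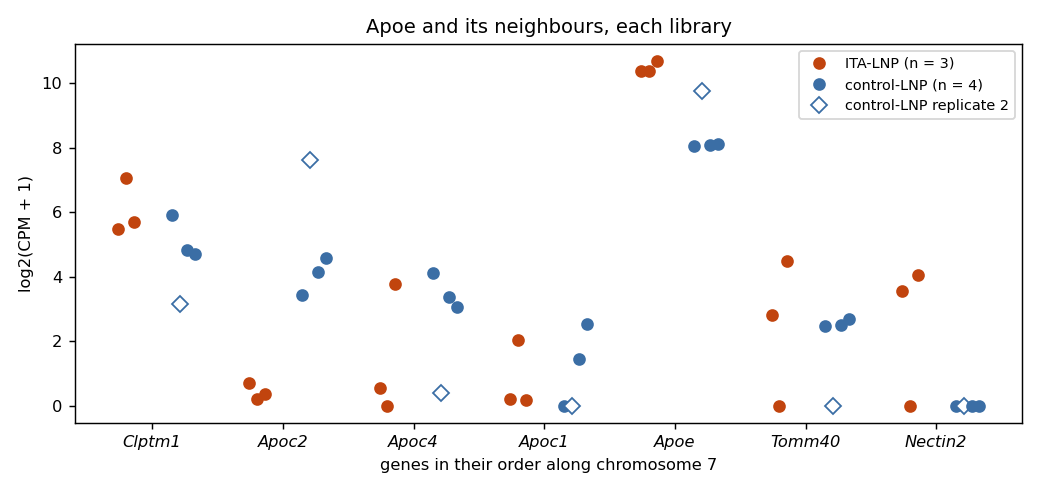
Level as log2(CPM + 1) of Apoe and its neighbours other than Gm44805, in their order along chromosome 7, with 1 point per library, ITA-LNP left and control-LNP right of each pair. Apoe is the most abundant gene of the cluster in every library and is higher with ITA-LNP, while Apoc2 is lower with ITA-LNP and reaches 195 CPM in control-LNP replicate 2.

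Vldlr (ENSMUSG00000024924.14; chromosome 19, 27216484 to 27254231, plus strand) encodes the very low-density lipoprotein receptor, which binds apolipoprotein E on triglyceride-rich particles in fat, muscle and endothelium. Its values in the ITA-LNP libraries were 63.5, 96.1 and 112 CPM, from 405, 652 and 816 reads. In control-LNP replicates 1 to 4 they were 1.38, 0.598, 0.577 and 0.492 CPM, from 7, 4, 3 and 3 reads. The groups lay far apart, and Vldlr had the largest log2 fold change of the 6 tested genes, a rise of 5.69 ± 0.81 (limma, adjusted p = 0.00149), at the 98.1 percentile of the fold changes of all genes tested. The ratio of CPM from pooled reads was 124 (95% exact interval 77.4 to 214, which leaves out the spread between libraries). Vldlr kept its call under all 20 alternatives, at log2 fold changes of 4.28 to 6.83 (limma, adjusted p up to 0.0267). It was 5.65 ± 0.58 without control-LNP replicate 2. The white adipocyte markers summed to 5791 to 7200.0 CPM with ITA-LNP and 51.7 to 345 CPM with control-LNP. Of these 8 markers, Lep was at 0 throughout both groups, and Adipoq and Cidec throughout the control-LNP group. Their part in the result, like that of the smooth muscle markers above, was not tested.

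Scarb1 (ENSMUSG00000037936.15; chromosome 5, 125277087 to 125341094, minus strand) encodes SR-BI, the receptor through which cells take cholesterol from high-density lipoproteins and give cholesterol to them. It was at 42.8, 14.0 and 5.49 CPM in ITA-LNP replicates 1 to 3, from 273, 95 and 40 reads. In control-LNP replicates 1 to 4 it was at 32.1, 0.299, 16.2 and 13.1 CPM, from 163, 2, 84 and 80 reads. Both groups spread widely and overlapped, and the span among ITA-LNP libraries was 7.80-fold, a coefficient of variation of 94.2% where counting alone gives 8.57%. Scarb1 did not pass, at a log2 fold change of 0.68 ± 1.25 (limma, adjusted p = 0.781), whose 95% interval ran from -2.12 to 3.48. Leaving out control-LNP replicate 2 gave -0.30 ± 0.78 (limma, adjusted p = 0.800), and the value was below 0 in 5 of the 20 alternatives.

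Scarb1 is most abundant in steroid-making cells and liver. Star, which carries cholesterol into the mitochondria of adrenal and gonadal cells, was at 2.51, 0 and 0.137 CPM in ITA-LNP replicates 1 to 3, against 20.9, 0.150, 8.85 and 12.1 CPM in control-LNP replicates 1 to 4. The 7 adrenal cortex markers summed to 0 to 2.51 CPM with ITA-LNP and 0.598 to 22.5 CPM with control-LNP. Control-LNP replicate 1 was the highest and replicate 2 the lowest of its group for both that sum and Scarb1. Control-LNP replicates 3 and 4 were in opposite order, with the markers summing to 9.04 and 13.0 CPM and Scarb1 at 16.2 and 13.1 CPM. Of those markers, Cyp11b2, Hsd3b1, Cyp21a1 and Mc2r were at 0 in all libraries, and Cyp11a1 in all with ITA-LNP. The part of such cells in the Scarb1 values was not tested.

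Olr1 (ENSMUSG00000030162.14; chromosome 6, 129485244 to 129507165, minus strand) encodes LOX-1, a scavenger receptor for oxidised low-density lipoprotein on endothelium, macrophages and smooth muscle. It was at 13.0, 0 and 5.49 CPM in ITA-LNP replicates 1 to 3, from 83, 0 and 40 reads, so that ITA-LNP replicate 2 lay at up to 0.442 CPM. In control-LNP replicates 1 to 4 it was at 6.70, 13.2, 0.769 and 2.95 CPM, from 34, 88, 4 and 18 reads. The groups overlapped over nearly their whole range, and Olr1 did not pass, at a log2 fold change of -0.22 ± 1.16 (limma, adjusted p = 0.933; 95% interval -2.83 to 2.39). It was 0.25 ± 1.09 without control-LNP replicate 2, the library with the highest value of Olr1. It was 0.86 without ITA-LNP replicate 2 (limma, adjusted p = 0.718).

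The part of each level that was present in the control-LNP libraries differed between the genes, and it is set here beside the same share of marker lists. The control-LNP mean of Vldlr was 0.841% of its ITA-LNP mean. That share rested on 3 to 7 reads per control-LNP library, near the limit of 3 reads, so its exact value is uncertain. For the summed smooth muscle markers the share was 0.843%, for the fibroblast markers 1.08% and for the white adipocyte markers 2.09%. For Apod the share was 3.56%, and for the foamy macrophage markers, which lipid-filled macrophages express, 5.53%. Clu and Apoe stood at 27.8% and 29.0%, and the 8 endothelial markers, of which 5 rose and 0 fell, at 28.1%. Scarb1 and Olr1 stood at 74.2% and 95.5%, and the macrophage markers, of which 4 rose and 1 fell, at 80.6%. Apoc1 stood at 144% and the hepatocyte markers at 218%, and the Schwann cell markers, of which 2 rose and 0 fell, at 121%. The erythroid, T cell, platelet, B cell and neutrophil lists had control-LNP means of 626% to 14091% of their ITA-LNP means, and the adrenal cortex list 1213%. The shares of Apoe, Clu and Olr1 without control-LNP replicate 2 were 18.7%, 20.4% and 56.3%, and those of the endothelial, white adipocyte and neutrophil markers 24.5%, 1.01% and 5904%. Which cells the reads of the 7 genes came from was not tested.

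**Figure D3:**
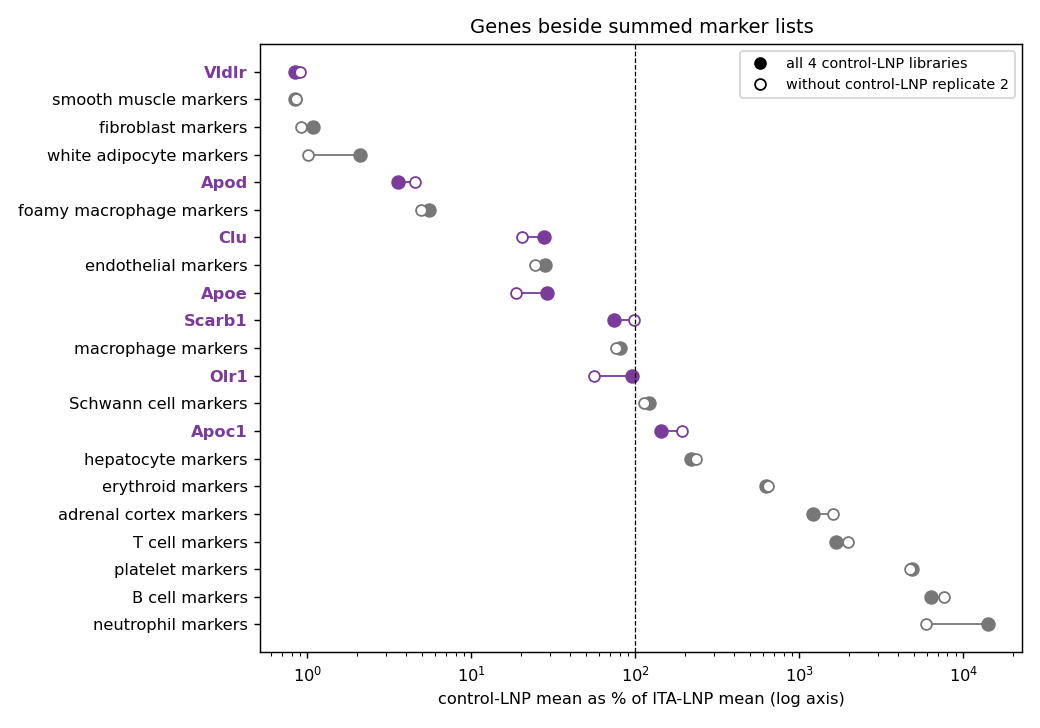
Control-LNP mean as a percentage of the ITA-LNP mean (log axis) for the 7 genes (purple) and for summed marker lists (grey), over all 4 control-LNP libraries (filled) and without control-LNP replicate 2 (open); the dashed line marks equal levels. Vldlr lies at 0.841%, from 3 to 7 reads per control-LNP library, and the smooth muscle markers lie at 0.843%. Clu and Apoe lie at 27.8% and 29.0%, and the platelet, B cell and neutrophil markers lie far to the right.

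Genes with the profile most like that of each tested gene were found as those with the smallest root mean square difference of log2(CPM + 1) over the 7 libraries, each gene centred on its own mean, among 11924 named genes. Likeness here is a description over 7 libraries that fall into 2 groups. Clu was closer to Apoe (0.165) than any gene outside the 7 was. The next of the named genes were Man2a1, a Golgi mannosidase (0.222), Il6st, the shared receptor chain of the interleukin-6 family (0.231), and Svil, an actin- and membrane-binding protein (0.232). For Clu they were the adhesion molecule Alcam (0.0978), Man2a1 (0.150) and Il6st (0.151). For Vldlr they were the matrix protease Adamts5 (0.114), Ankrd1, a muscle ankyrin repeat protein (0.123), and the annexin Anxa8 (0.130), each with an ITA-LNP mean of 51.2 to 111 CPM and a control-LNP mean of at most 1.40 CPM. For Apod they were Dab2ip (0.260), the junction protein Jam2 (0.413) and the transcription factor Tbx18 (0.446). The closest to Scarb1 was Sfmbt1 (0.305), followed by Gfpt1 (0.309) and Dnajc11 (0.374), and all 3 had their highest ITA-LNP value in replicate 1 and their lowest control-LNP value in replicate 2, as Scarb1 did. For Olr1 the smallest differences were larger, those of Pdlim2 (0.614), Slc45a4 (0.635) and Adam11 (0.640).

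The stretch before the transcription start is shown for the 3 risen genes that the RefSeq promoter table holds, Apoe, Apod and Vldlr, and for Olr1, which did not pass, as a contrast. Apoc1, Clu and Scarb1 had no entry. Each line gives the 250 bases before the annotated start of the gene on GRCm38.p6, from RefSeq, 5′ to 3′ on the gene's strand. Capitals mark matches, on either strand, to 4 motifs: the GC box GGGCGG, the nuclear receptor half-site AGGTCA, the AP-1 site TGACTCA and the TATA box TATAAA.
Apoe, chr7:19699189-19699438, minus strand: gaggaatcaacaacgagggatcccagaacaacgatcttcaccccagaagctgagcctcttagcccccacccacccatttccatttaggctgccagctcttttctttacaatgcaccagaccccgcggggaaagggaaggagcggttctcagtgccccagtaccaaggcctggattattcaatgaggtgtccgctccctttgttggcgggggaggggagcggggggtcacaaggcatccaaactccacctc
Apod, chr16:31314809-31315058, minus strand: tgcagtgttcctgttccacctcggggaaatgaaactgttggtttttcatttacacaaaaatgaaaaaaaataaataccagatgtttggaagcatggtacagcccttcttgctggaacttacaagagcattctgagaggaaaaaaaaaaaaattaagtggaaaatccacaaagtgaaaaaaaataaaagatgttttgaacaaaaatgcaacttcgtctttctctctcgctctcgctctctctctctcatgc
Vldlr, chr19:27216234-27216483, plus strand: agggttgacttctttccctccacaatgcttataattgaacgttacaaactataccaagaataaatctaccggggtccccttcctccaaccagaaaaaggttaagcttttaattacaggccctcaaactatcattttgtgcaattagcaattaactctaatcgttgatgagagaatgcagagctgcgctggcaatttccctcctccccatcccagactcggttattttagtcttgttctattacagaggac
Olr1, chr6:129507166-129507415, minus strand: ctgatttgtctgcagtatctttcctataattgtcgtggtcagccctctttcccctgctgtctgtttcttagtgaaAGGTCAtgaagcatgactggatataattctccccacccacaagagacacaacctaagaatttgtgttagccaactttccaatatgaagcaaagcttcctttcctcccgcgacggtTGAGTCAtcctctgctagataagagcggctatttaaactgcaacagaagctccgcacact
The windows of Apoe, Apod and Vldlr held none of these letters, while that of Olr1 held a half-site that begins 175 bases before the start and an AP-1 site, on the opposite strand, that begins 60 bases before it. Among 32851 promoter windows of the same length, 32.7% held the GC box, 14.0% the half-site, 4.46% the AP-1 site and 12.4% the TATA box, and no match overlapped another in the 4 windows. The share of G and C was 57.2% for Apoe, 36.4% for Apod, 41.6% for Vldlr and 45.2% for Olr1, against a median of 52.4% over all windows. The 3 risen genes therefore had no motif of this set in common. A match is a run of letters and not a site of binding, and no match says only that these letters are not in this window.

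The rest of the lipoprotein system was read from 4 lists with 84 genes, all of which were in the table. Of 24 other apolipoprotein genes, 8 could be tested, 0 were higher and 1, Apoc2, was lower, with a median log2 fold change of -1.32 against 0.15 over all genes tested. Over all genes tested 10.3% were higher and 5.15% lower, and the counts of so small a list are no result about it. The next by p were Apol7e, Apol7b and Apol6, of the apolipoprotein L family, whose mouse copies are so alike that the counting could split reads between them. Apol7e was at 0 reads in all ITA-LNP libraries and at 17.3, 0, 24.6 and 12.0 CPM with control-LNP (limma, adjusted p = 0.106; 0.00182 without control-LNP replicate 2). Apol7b was at 25.3, 13.3 and 20.3 CPM with ITA-LNP (3.25 ± 1.21, limma, adjusted p = 0.110). With control-LNP it was at 18.4 CPM in replicate 4 and at 0 reads in the others. Its adjusted p (limma) was 0.107 without control-LNP replicate 2. It was 0.0265 without control-LNP replicate 4, the only control-LNP library with reads of it. Apol6 had a log2 fold change of 1.45 ± 1.02 (limma, adjusted p = 0.400).

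Of 22 genes of the LDL receptor family and its adaptors, 18 were tested, 2 were higher and 0 lower, with a median log2 fold change of 1.61. The share called higher was thus near the 10.3% of all genes tested and is no result about the list. Lrp1, the large endocytic receptor that clears apolipoprotein E particles, was at 266, 284 and 233 CPM with ITA-LNP and 61.3, 2.84, 19.6 and 26.7 CPM with control-LNP. It rose by 3.76 ± 0.86 (limma, adjusted p = 0.0151), a call lost without any 1 of the ITA-LNP replicates (adjusted p = 0.0586 to 0.0666). Dab2, the endocytic adaptor of these receptors, rose by 4.86 ± 0.95 (limma, adjusted p = 0.00672). Sorl1, a sorting receptor that leukocytes also express, was at 213 to 341 CPM with ITA-LNP and 437 to 759 CPM with control-LNP (-0.99 ± 0.31, limma, adjusted p = 0.0584; 0.0292 without control-LNP replicate 2). Lrpap1, the chaperone of the family, had a log2 fold change of 1.65 ± 0.71 (limma, adjusted p = 0.157), which was 2.26 and passed without control-LNP replicate 2 (adjusted p = 0.00155).

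Among 18 scavenger and other lipoprotein receptors 14 were tested, of which 6 were higher and 0 lower, with a median log2 fold change of 3.09, where 10.3% of all genes tested were higher. Cd36, which takes up oxidised lipoprotein and fatty acids in macrophages, fat cells and microvessels and is also on platelets, was at 755, 1027 and 912 CPM with ITA-LNP and 42.9, 2.84, 33.5 and 41.8 CPM with control-LNP, a rise of 5.32 ± 0.83 (limma, adjusted p = 0.00222). Colec12, a collectin-type scavenger receptor, rose by 5.52 ± 0.80 (adjusted p = 0.00162, limma). Cxcl16, which serves as a chemokine and as a receptor for oxidised lipids, rose by 4.06 ± 0.93 (limma, adjusted p = 0.0151), a call lost without ITA-LNP replicate 2 or 3 (adjusted p = 0.0811 and 0.0702). Scarf2, a relative of the endothelial scavenger receptor, rose by 4.16 ± 0.91 (limma, adjusted p = 0.0116) and lost its call without control-LNP replicate 3 or 4 (adjusted p = 0.0575 and 0.0528) and with median centring or quantile normalization (adjusted p = 0.134 and 0.0535). Scarb1 and Olr1, of the same kinds of receptor, are given above and did not pass.

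Among 20 lipoprotein enzymes and transfer proteins 14 were tested, of which 6 were higher and 0 lower, with a median log2 fold change of 2.52. Of all genes tested, 10.3% were higher and 5.15% lower. The first 4 by p were Lpl, Hspg2, Gpihbp1 and Sdc1. Lpl, the lipase that frees fatty acids from the particles that Vldlr binds, was at 980 to 1275 CPM with ITA-LNP and 3.59 to 30.7 CPM with control-LNP, a rise of 5.97 ± 0.69 (limma, adjusted p = 0.000513). Gpihbp1, which anchors that lipase to capillary endothelium, was at 96.5, 145 and 55.9 CPM with ITA-LNP and 0.591, 0.299, 0.385 and 1.31 CPM with control-LNP, a rise of 5.86 ± 0.83 (limma, adjusted p = 0.00151). The heparan sulphate proteoglycans that hold lipoproteins rose too, Hspg2 by 5.98 ± 0.80 and Sdc1 by 4.90 ± 0.73 (limma, adjusted p = 0.00112 and 0.00188). Hspg2 and Gpihbp1 had at most 8 reads in a control-LNP library, near the limit of 3 reads, so the size of their changes is uncertain. Apoc2, the cofactor of the lipase, was lower, as given above. With control-LNP replicate 2 left out, the lists of LDL receptor family genes, scavenger receptors and enzymes had 4, 9 and 7 higher genes and 1, 0 and 0 lower genes, of 19, 14 and 14 tested. The other apolipoproteins had 0 higher and 2 lower of 8. Calls were more frequent over all genes too in that setting, at 15.4% higher and 16.0% lower.

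**Figure D4:**
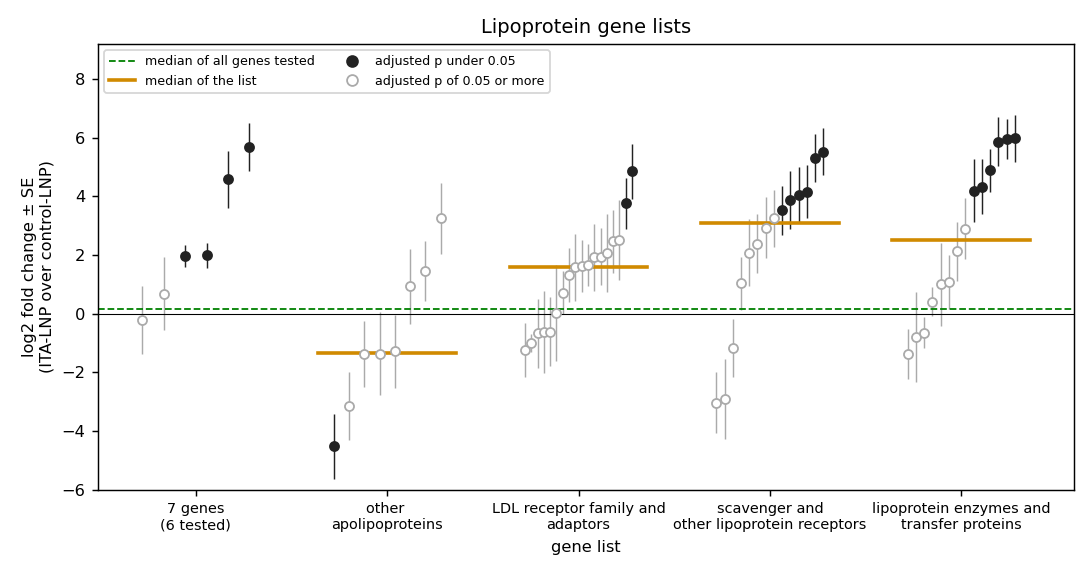
Log2 fold change ± SE of each tested gene (ITA-LNP over control-LNP) for the 7 genes and 4 lists of the lipoprotein system; filled points passed at an adjusted p under 0.05, orange bars are list medians and the dashed line is the median of all genes tested. List medians run from -1.32 for the other apolipoproteins to 3.09 for the scavenger receptors.

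**Figure D5:**
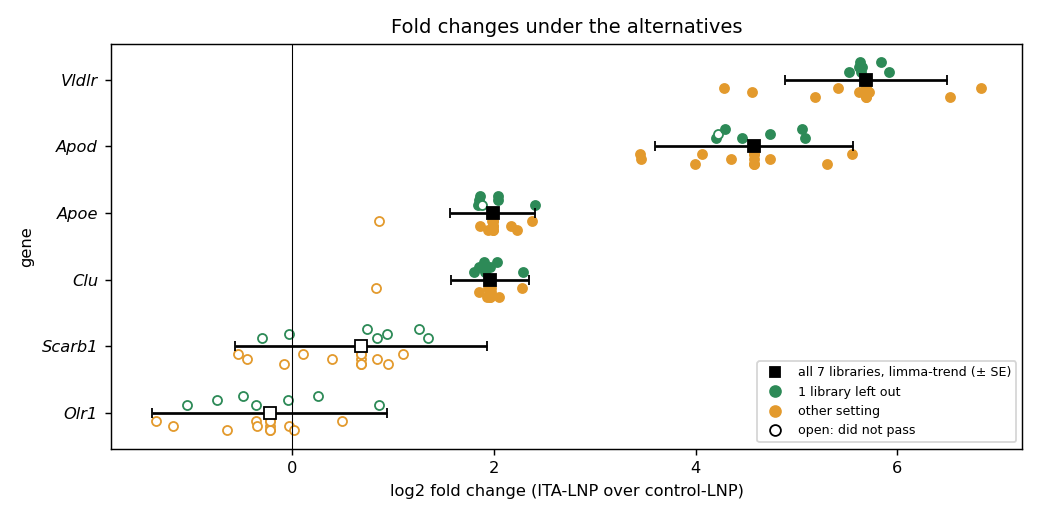
Log2 fold change of the 6 tested genes with all 7 libraries (black squares ± SE), with 1 library left out (green) and under the other settings (orange), where open symbols did not pass; the points for a prior without a trend lie under the squares. Vldlr is filled throughout, Apoe and Clu drop to 0.86 and 0.83 with median centring, and Scarb1 and Olr1 lie on both sides of 0.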

How the data were processed

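Whole abdominal aorta was measured by QuantSeq 3′ mRNA sequencing from 500 ng of total RNA, per the labels' protocols. The submitters' processing notes name the build mm10. For the aligner, the counter, the annotation and the handling of strand and molecular identifiers, the sources used here give nothing. The authors deposited 1 table of log10 values for 32544 genes and 7 libraries. As powers of 10 less 1, the columns sum to 1000000, so the deposited log10 values were read as log10(CPM + 1). All of them (100%) were whole reads within a tolerance of 0.01, which gave the depths.

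Tests used log2(CPM + 1), where the pseudocount of 1 understates the change of low genes. Genes with a mean of at least 1 were tested with limma-trend (limma 3.58.1, R 4.3.3), ITA-LNP against control-LNP with no covariate, Benjamini-Hochberg adjustment over all 12636 genes and a threshold of 0.05. Errors are SE of a fold change unless SD is written. The procedure was tested on simulated counts without an outlying library, so that test does not cover libraries like control-LNP replicate 2. Groups and replicate numbers come from the sample titles. The named genes are the 7 genes, the first 4 by p of each of 4 lists, and the 3 genes most like each tested gene. The 7 genes and the lists were chosen with earlier results of these data known. Coordinates are from GENCODE M21. No member's exons overlapped those of another gene. No 2 libraries were alike within counting noise. The alternatives were other filters, pseudocounts, scalings, variance priors, sample weights, limma-voom, a replicate block, a threshold of 0.1 and leaving out each library. Median centring without control-LNP replicate 2 was added after the data were seen. Python 3.11.15 with pandas 2.3.3, numpy 2.4.6, scipy 1.17.1 and matplotlib 3.10.9 was used.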

Additional observations from a re-analysis of the deposited data

Results flagged for a closer look

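By Dixon's test on log2(CPM + 1), 7 of 23 genes had 1 control-LNP library set apart from the other 3. Chance gives this in about 1 in 20 groups, but these genes share libraries, so their count cannot be set against that rate. In 5 of the 7 the library was control-LNP replicate 2. Apoe was high there, at 856 CPM against 263 to 274 CPM in the others, as was Lrpap1 at 124 CPM against 20.8 to 23.8 CPM. Cd36, Cxcl16 and Lpl were low there, at 2.84, 0.299 and 3.59 CPM against 33.5 to 42.9, 7.05 to 10.2 and 22.5 to 30.7 CPM. Vldlr was high in control-LNP replicate 1, at 1.38 CPM from 7 reads against 0.492 to 0.598 CPM from 3 to 4 reads. Its 95% counting interval of 0.554 to 2.84 CPM overlapped those of the others, so it was not set apart beyond counting error. Apol7b was at 18.4 CPM in control-LNP replicate 4 and at 0 reads in the others, a pattern that this test always flags.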

How the results depend on the processing

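Of the 4 risen genes, all stayed higher under every alternative, and Vldlr kept its call in all 20. Among the 20, the threshold of 0.1 uses the same fit and cannot lose a call. Other filters and variance priors leave a fold change as it is, so the 20 are not separate checks. The count of changed genes (1957) became 3015 with quantile normalization, 4343 with sample weights, 4325 with median centring without control-LNP replicate 2, and 1387 to 4053 when 1 library was left out, the highest without control-LNP replicate 2. The share of called genes that were higher, 66.7%, was 53.5% with quantile normalization, 48.4% with sample weights and 49.1% without control-LNP replicate 2. Members higher numbered 2 with median centring and 2 with a prior without a trend. Under these Apoe was at 0.86 and 1.99 and Clu at 0.83 and 1.96, without passing. With 1 library left out, Apoe ranged from 1.84 to 2.40, Apod from 4.20 to 5.09, Clu from 1.80 to 2.29, Vldlr from 5.52 to 5.92, Scarb1 from -0.30 to 1.34 and Olr1 from -1.04 to 0.86, and members higher from 3 to 4. Scarb1, at 0.68 with all libraries, was -0.45 with median centring, -0.0794 with quantile normalization and -0.54 with median centring without control-LNP replicate 2. Olr1, at -0.22, was 0.49 with sample weights and 0.0167 with that added setting. The cause of these shifts was not tested. With the replicate number as a block, 1060 genes were called and the same 4 members kept their calls. Apoc2 (-4.64), Scarf2 (4.16) and Cxcl16 (4.22) lost theirs with the block (limma, adjusted p = 0.0733, 0.0748 and 0.0698). Same-numbered libraries deviated from their group means with correlations of -0.0173 to 0.00528, and differently numbered ones with -0.0322 to 0.0257. These values show no pairing by number, but 3 pairs are too few to exclude one. Read depth limits Apoc1, Apod and Vldlr in the control-LNP libraries, where they had at most 33 reads. It also limits Dab2, Colec12, Scarf2, Hspg2 and Gpihbp1 there, with at most 17, 13, 4, 8 and 8 reads in a library.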
